A study of Mus musculus with 4 samples.

Results

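The 46 genes described here encode the NF-kB transcription factors with their inhibitors and kinases, the TNF and interleukin-1 receptors and adaptors that signal to them, and cytokines, chemokines, adhesion molecules and enzymes that they are known to induce. They were taken from the deposited count table by gene symbol, and 46 of 46 matched 1 row each among the 56748 genes of the table. RNA was measured by poly(A)-selected RNA-seq in HT22, an immortalised mouse hippocampal neuronal cell line, with 2 libraries from a line built to overexpress MEIS2, a homeodomain transcription factor, and 2 from a control line. No treatment, cytokine or time is named for either line, and neither the vector nor the number of clones is given, so an effect of MEIS2 and another difference between the lines cannot be told apart. Separate cultures are not named for the libraries of either line. The p-values therefore measure only how far these libraries differ from each other, which may be technical.

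NF-kB is a family of dimeric transcription factors that are held in the cytoplasm by IkB proteins. Cytokines such as TNF and interleukin 1 bind receptors whose adaptors activate the IkB kinases, the inhibitor is degraded, and the dimers enter the nucleus and bind kappaB sites in the promoters of cytokine, chemokine and adhesion genes. Several of the induced genes, among them Nfkbia and Tnfaip3, encode inhibitors of the same pathway and close a negative feedback loop. In the brain most inflammatory cytokines are made by microglia and astrocytes, while neurons carry receptors for many of them. A level of mRNA does not measure NF-kB activity, which is set largely by where the protein is in the cell.

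Total counts were 15705070 and 15014017 in the MEIS2 libraries and 16903967 and 16445575 in the controls. Levels are given in CPM, counts scaled to the library total times its TMM normalization factor. A count of 3, used as the floor of detection, was worth 0.192 and 0.179 CPM in the MEIS2 libraries and 0.195 and 0.185 CPM in the controls, for counting error only. Meis2 itself had 5182 and 5571 counts in the MEIS2 libraries, against 245 and 319 in the controls, with a log2 fold change of 4.22 (SE 0.34, edgeR adjusted p 6.41e-05). Of 11 neuronal markers, 6 had no count in any library, among them Rbfox3 and Snap25, so the neuronal label was only partly borne out. The neuronal list summed to 28.32 and 33.15 CPM in the MEIS2 libraries and 33.95 and 26.16 CPM in the controls. Most came from Tubb3 (17.1 and 11.9 CPM in the MEIS2 libraries, 22.2 and 16.2 CPM in the controls) and Map2 (8.27 and 18.2 CPM, against 6.65 and 7.2 CPM). Of 10 microglia and macrophage markers, 5 had no count in any library, namely Ptprc, Itgam, Adgre1, Cx3cr1 and P2ry12. Their list summed to 37.9 and 26.9 CPM in the MEIS2 libraries and 47.3 and 37.5 CPM in the controls, mostly from Tmem119 (26.6 and 19 CPM in the MEIS2 libraries, 34.9 and 25.2 CPM in the controls) and Cd68. The 4 T cell markers had no count, the 5 astrocyte markers summed to at most 0.449 CPM in a library and the 5 endothelial markers to at most 0.431 CPM. A fibroblast list summed to 392.6 and 527.3 CPM in the MEIS2 libraries and 390.6 and 357.6 CPM in the controls, with Lum and Thy1 at 0, and its part in the results below was not tested.

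The promoters of the members were searched for the kappaB consensus motif and for the core MEIS motif TGACAG, on both strands, in windows of 300 bases (250 before the start of transcription and 50 after it) from RefSeq on GRCm38.p6. Of the 46 members, 36 had a window. The kappaB motif was found in 14 of 36 genes (38.9%), against 9.55% of the 27025 genes with a window. The members were picked as NF-kB genes, so this share describes the choice of list and is no evidence on HT22 cells. The MEIS core motif was found in 8 of 36 genes (22.2%), against 21.6% of all genes. These matches are letters in a window and do not show binding. The 6 promoters printed here belong to members on which the results below turn: Rel and Lif, with levels higher in both MEIS2 libraries than in either control; Tnip1, with levels lower in both and the only window of a member except that of Ccl20 with both motifs; Nfkbia and Cxcl1, textbook NF-kB targets with means close in both lines; and Il6, whose counts differed between the libraries of each line. Capitals mark kappaB matches and, in Tnip1, also the MEIS match TGACAG; overlapping matches run together. Rel (chr11:23770920-23771219) and Lif (chr11:4257318-4257617) come first, then Tnip1 (chr11:54962891-54963190), Nfkbia (chr12:55492598-55492897), Cxcl1 (chr5:90890995-90891294) and Il6 (chr5:30012864-30013163). Rel, Tnip1 and Nfkbia lie on the minus strand and the others on the plus strand, and each is written 5′ to 3′ on the strand of its gene.
Rel: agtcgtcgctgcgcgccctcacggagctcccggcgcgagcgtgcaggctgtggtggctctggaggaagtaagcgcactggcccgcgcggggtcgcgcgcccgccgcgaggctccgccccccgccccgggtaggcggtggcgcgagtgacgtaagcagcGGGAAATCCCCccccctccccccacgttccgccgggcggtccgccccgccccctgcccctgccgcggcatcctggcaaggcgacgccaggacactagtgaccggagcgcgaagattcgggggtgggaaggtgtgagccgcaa
Lif: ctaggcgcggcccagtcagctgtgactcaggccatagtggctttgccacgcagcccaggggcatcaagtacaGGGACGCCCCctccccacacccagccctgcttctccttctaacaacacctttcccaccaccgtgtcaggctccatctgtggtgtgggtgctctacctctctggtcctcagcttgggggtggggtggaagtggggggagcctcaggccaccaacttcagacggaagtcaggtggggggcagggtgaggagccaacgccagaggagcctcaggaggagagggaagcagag
Tnip1: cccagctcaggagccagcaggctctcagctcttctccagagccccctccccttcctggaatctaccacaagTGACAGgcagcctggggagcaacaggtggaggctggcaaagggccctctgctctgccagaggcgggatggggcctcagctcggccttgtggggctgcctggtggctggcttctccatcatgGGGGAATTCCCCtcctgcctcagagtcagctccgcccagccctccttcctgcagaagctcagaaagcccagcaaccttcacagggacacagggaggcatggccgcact
Nfkbia: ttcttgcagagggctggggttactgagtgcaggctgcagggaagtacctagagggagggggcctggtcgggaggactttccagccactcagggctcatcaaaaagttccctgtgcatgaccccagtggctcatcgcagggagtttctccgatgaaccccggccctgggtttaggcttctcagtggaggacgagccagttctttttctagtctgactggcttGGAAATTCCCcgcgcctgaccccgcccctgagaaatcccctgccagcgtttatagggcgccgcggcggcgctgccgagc
Cxcl1: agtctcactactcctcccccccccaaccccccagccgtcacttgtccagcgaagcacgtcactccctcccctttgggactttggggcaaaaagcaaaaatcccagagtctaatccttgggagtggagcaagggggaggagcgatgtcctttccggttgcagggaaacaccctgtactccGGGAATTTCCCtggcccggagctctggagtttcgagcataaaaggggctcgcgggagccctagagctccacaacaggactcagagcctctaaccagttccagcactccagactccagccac
Il6: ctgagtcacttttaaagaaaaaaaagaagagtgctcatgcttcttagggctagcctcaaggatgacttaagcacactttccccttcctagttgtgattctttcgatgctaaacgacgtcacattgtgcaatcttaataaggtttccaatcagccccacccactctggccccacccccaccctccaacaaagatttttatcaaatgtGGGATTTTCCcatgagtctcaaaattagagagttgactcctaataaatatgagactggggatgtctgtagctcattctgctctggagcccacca
The kappaB match nearest to the start of transcription began 91 bases before it in Rel, 178 in Lif, 56 in Tnip1, 29 in Nfkbia, 70 in Cxcl1 and 44 in Il6.

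HT22 cells carried mRNA of receptors, adaptors, kinases, inhibitors and all 5 subunits, but hardly any of Tnf, Il1a or Il1b. Levels per length (TMM-scaled CPM per kilobase, averaged over the 4 libraries) were highest for Ccl2 (82.8), Tnfrsf1a (72.9), Csf1 (69), Ccl7 (66.7), Nfkb2 (59.8) and Rela (53), and the 4 values of neighbours in this order overlapped. At the other end, Il1b had 0 counts in all 4 libraries, Tnf had 0 and 0 counts in the MEIS2 libraries and 1 and 0 in the controls, and Il1a had 1 and 1, against 0 and 0. Csf2 had 0 and 1 counts in the MEIS2 libraries and 0 and 1 in the controls, and Cxcl2 had 3 and 3, against 1 and 0. These 5 members stayed at or under the floor of 3 counts in every library. In bulk RNA, fewer cells that express a gene and less of its RNA per cell cannot be told apart. Icam1, the adhesion molecule bound by leukocyte integrins, had 6 and 2 counts in the MEIS2 libraries and 2 and 3 in the controls. Il11, a cytokine of the interleukin-6 family, had 11 and 9, against 5 and 4. Those 7 members had too few counts to be tested, which left 39, of which 26 averaged at least 10 CPM.

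**Figure D1:**
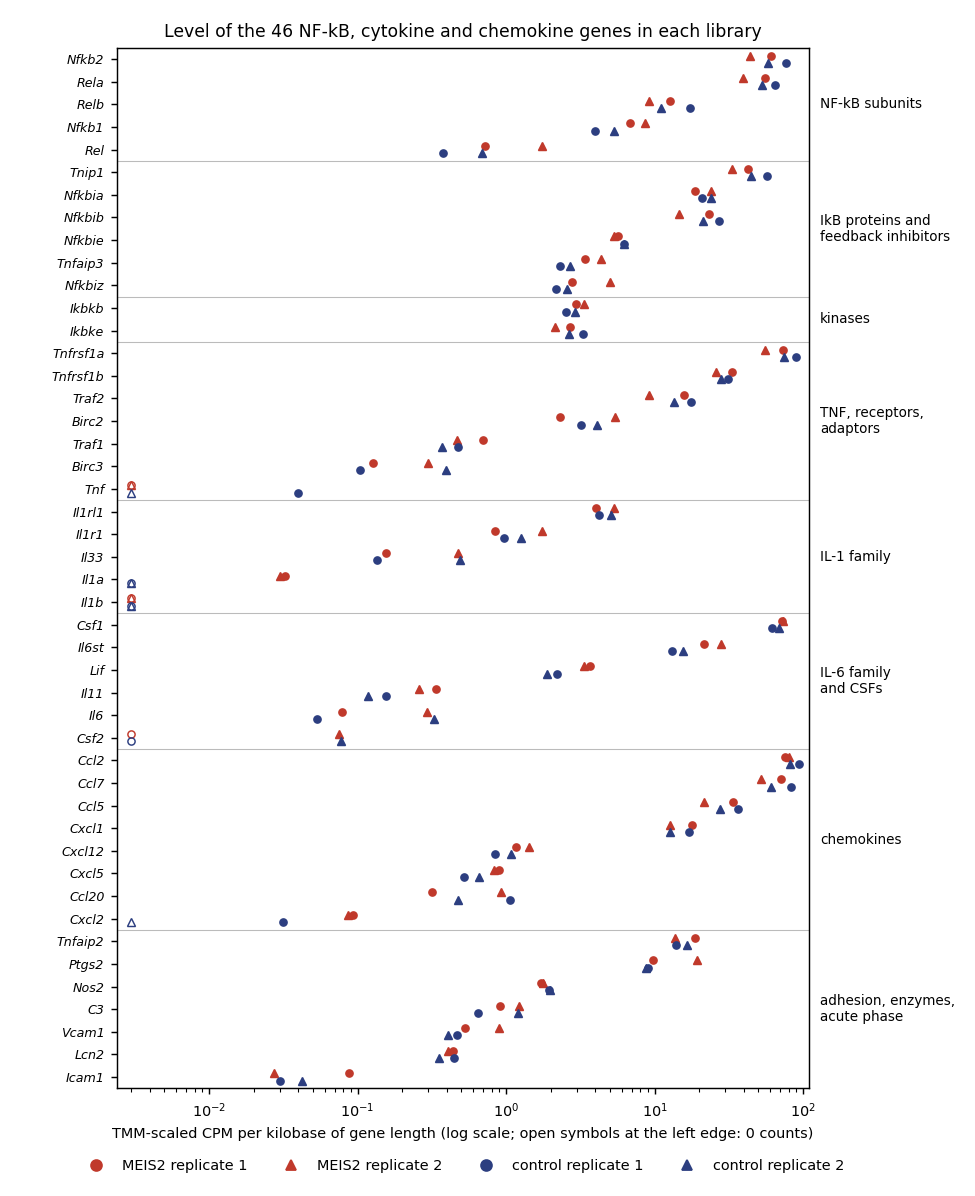
Each row is 1 of the 46 genes, grouped by role, and the x axis is the level in TMM-scaled CPM per kilobase on a log scale; red symbols are MEIS2 libraries, blue are controls, circles replicate 1 and triangles replicate 2, and open symbols at the left edge are counts of 0. Levels of the members run from 0 counts (Il1b) to a mean of 82.8 (Ccl2), and for most members the red and blue symbols lie close together.

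The fitted differences of the members centred near 0, and no member passed the test. At an adjusted p under 0.05 (quasi-likelihood test of edgeR, Benjamini-Hochberg over all 12802 genes tested), 0 of 39 members were called, where 1 gene in all (0.00781%), Meis2, was. At an unadjusted p under 0.05, 3 of 39 members (7.69%) were higher in the MEIS2 line and 0 lower, against 9.79% and 0.414% of all tested genes (10.2% in either direction). DESeq2 called 0 of 39, against 0.547% of all genes, and limma-voom called 0 of 39, against 0.00781%. DESeq2 gave no adjusted p for Rel and several other members with lower counts, and these are counted here as not called. The 3 members at an unadjusted p under 0.05 in edgeR were Il6st, Rel and Nfkb1. Both MEIS2 libraries lay above both controls for 12 members (30.8%), against 22.6% of all tested genes, and below both for 5 (12.8%), against 19.1%. The median log2 fold change of the tested members was 0.02 (range -0.44 to 1.21), against 0.01 over all genes, and 30 of the 39 lay within 0.5 of 0. SEs ran from 0.297 to 0.915 with a median of 0.363, so a difference of 2-fold in a single member could go uncalled, and a missed threshold does not show equal levels. Above 0 were 21 members (53.8%), against 50.9% of all genes. The count of 3 at an unadjusted p rested on the libraries used. Leaving out control replicate 1 gave 0 members (1.75% of all genes) and leaving out control replicate 2 gave 1 (5.32%). When MEIS2 replicate 1 was left out 9 members passed (34.2% of all genes), and when MEIS2 replicate 2 was, 1 did (4.22%).

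**Figure D2:**
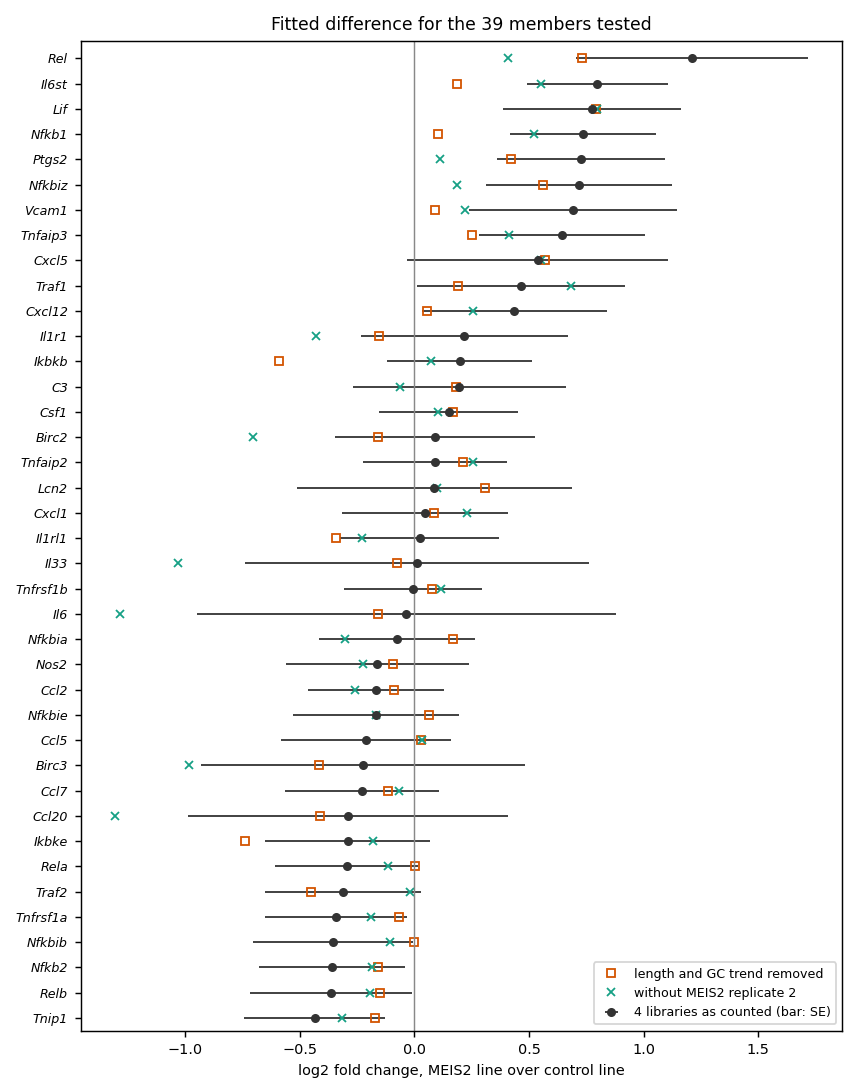
Log2 fold changes (x axis, MEIS2 line over control line) of the 39 tested members, ordered by size; black points with bars are the fit and its SE, orange squares the fit after removal of a trend on length and GC content per library, and green crosses the fit without MEIS2 replicate 2. Rel stands highest at 1.21 and Tnip1 lowest at -0.44; Lif keeps nearly the same value in all 3 fits, while those of Il6st and Nfkb1 shrink to 0.18 and 0.10 with the trend removed.

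Among the NF-kB subunits, the transcripts of Rel and Nfkb1 were higher in both MEIS2 libraries than in either control, and those of Nfkb2, Rela and Relb averaged lower, Rela at 0.00 on the log2 scale with the trend removed. Rel, which encodes c-Rel, a subunit with a transactivation domain best known from lymphocytes, measured 5.38 and 12.9 CPM in the MEIS2 libraries and 2.8 and 5.11 CPM in the controls. MEIS2 replicate 1 and control replicate 2 nearly met, and the highest value was that of MEIS2 replicate 2. The log2 fold change was 1.21 (SE 0.51, edgeR adjusted p 0.41), the only one of the members over 1, and it was 0.41 without MEIS2 replicate 2. Nfkb1 encodes p105, the precursor of the p50 subunit, and measured 82.7 and 104.3 CPM in the MEIS2 libraries, against 48 and 64.4 CPM in the controls. Its log2 fold change was 0.73 (SE 0.32, edgeR adjusted p 0.438), and 0.10 once the trend on length and GC content, described below, was removed. Nfkb2, which encodes p100, the precursor of p52 in the non-canonical pathway, was the subunit with the highest level per length. It measured 279.4 and 200.5 CPM in the MEIS2 libraries and 349.3 and 266.4 CPM in the controls, with overlap between MEIS2 replicate 1 and control replicate 2, and a log2 fold change of -0.36 (SE 0.32, edgeR adjusted p 0.658). A stretch of 299 bases of Nfkb2 overlaps Psd on the other strand, and another 1317 bases overlap 4833438C02Rik; since no source names the treatment of strand, reads from there cannot be told apart. Relb, the partner of p52, measured 49.7 and 35.6 CPM in the MEIS2 libraries and 66.9 and 42.9 CPM in the controls, and Rela, the main transactivating subunit p65, averaged 146.1 ± 34.8 CPM in the MEIS2 line and 179.3 ± 25.6 CPM in the control line (SD, n = 2 each). The lines overlapped for both, with log2 fold changes of -0.37 and -0.30. Without 1 library the log2 fold change ran from -0.66 to -0.02 for Relb, from -0.58 to -0.12 for Rela and from -0.64 to -0.16 for Nfkb2.

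The inhibitors did not share 1 direction. Nfkbia, the main IkB protein and a rapid NF-kB target, averaged 34.4 ± 5.89 CPM in the MEIS2 line and 36.2 ± 3.78 CPM in the control line (SD, n = 2 each), a log2 fold change of -0.08 (SE 0.34) that lay at 0.17 with the trend removed and at 0.08 with scaling by library size alone. Tnfaip3, which encodes A20, a ubiquitin-editing enzyme that shuts the pathway off, measured 24.7 and 31.7 CPM in the MEIS2 libraries and 16.6 and 19.5 CPM in the controls. Its MEIS2 values lay above both controls, with a log2 fold change of 0.64 (SE 0.36, edgeR adjusted p 0.576), or 0.25 with the trend removed and 0.41 without MEIS2 replicate 2. Nfkbiz encodes IkB-zeta, a nuclear protein that helps to switch on Il6 and other secondary response genes. It measured 13.8 and 25.1 CPM in the MEIS2 libraries, against 10.8 and 12.9 CPM in the controls (log2 fold change 0.72, SE 0.41, edgeR adjusted p 0.577). The MEIS2 value rested mostly on replicate 2, and without it the log2 fold change was 0.19. Tnip1, which binds A20 and restrains NF-kB, was the most abundant inhibitor per length. It measured 149.8 and 117.4 CPM in the MEIS2 libraries and 203.8 and 157.7 CPM in the controls, so both MEIS2 values lay below both controls. The log2 fold change was -0.44 (SE 0.31, edgeR adjusted p 0.608), or -0.17 with the trend removed. Nfkbib, a second IkB protein, measured 50.2 and 31.7 CPM in the MEIS2 libraries and 58.7 and 46.2 CPM in the controls, and 778 bases of it overlap Sirt2 on the other strand. Without 1 library the log2 fold change ran from -0.64 to -0.25 for Tnip1 and from -0.74 to -0.11 for Nfkbib, which stood at -0.36 (SE 0.35) with all 4. With the trend removed Nfkbib lay at -0.004. Nfkbie averaged 16.9 ± 0.727 CPM in the MEIS2 line and 18.9 ± 0.137 CPM in the control line (SD, n = 2 each), a small gap without overlap. Its log2 fold change was -0.17 (SE 0.36), and 0.063 with the trend removed.

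Of the IkB kinases, Ikbkb, the catalytic subunit of the canonical pathway, measured 56.3 and 63.4 CPM in the MEIS2 libraries and 48.4 and 56 CPM in the controls. The gap between MEIS2 replicate 1 and control replicate 2 was small, and the log2 fold change was 0.20 (SE 0.32, edgeR adjusted p 0.8). At 19078 bases Ikbkb was the longest of the members, and once that trend was removed its log2 fold change was -0.59. Ikbke, an IkB kinase relative that also acts in interferon induction, measured 24.3 and 19.4 CPM in the MEIS2 libraries and 29.7 and 23.8 CPM in the controls, with overlap (log2 fold change -0.29, SE 0.36).

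For the TNF branch, receptors and adaptors were present while the ligand was at the floor. Tnfrsf1a, the receptor for soluble TNF found on nearly all cells, measured 190.9 and 142.5 CPM in the MEIS2 libraries and 230.5 and 191.9 CPM in the controls. Both MEIS2 values lay below both controls, MEIS2 replicate 1 by a small margin, and the log2 fold change was -0.34 (SE 0.31, edgeR adjusted p 0.663), or -0.07 with the trend removed. Tnfrsf1b, the other TNF receptor, averaged 112.8 ± 19.3 CPM in the MEIS2 line and 113.3 ± 7.92 CPM in the control line (SD, n = 2 each). The adaptor Traf2 averaged 63.6 ± 23.6 CPM in the MEIS2 line and 78.9 ± 14.5 CPM in the control line (SD, n = 2 each), with overlap. Traf1, an NF-kB target and partner of Traf2, measured 6.15 and 4.11 CPM in the MEIS2 libraries and 4.17 and 3.26 CPM in the controls, with MEIS2 replicate 2 inside the control range (log2 fold change 0.46, SE 0.46). The ubiquitin ligases Birc2 and Birc3 had log2 fold changes of 0.09 (SE 0.44) and -0.22 (SE 0.71). Birc2 was -0.70 without MEIS2 replicate 2. Without 1 library Tnfrsf1a ran from -0.59 to -0.19 and Traf1 from 0.13 to 0.68.

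The interleukin-1 family showed receptors and little ligand. Il1rl1, the ST2 receptor for interleukin 33, had the highest level per length of the 5 genes, with 28 and 37 CPM in the MEIS2 libraries and 29.1 and 35 CPM in the controls. The lines spanned nearly the same range, and the log2 fold change was 0.02 (SE 0.35, edgeR adjusted p 0.984), of either sign across scalings. Il1r1, the signalling receptor of interleukin 1, averaged 8.21 ± 3.99 CPM in the MEIS2 line and 7.06 ± 1.33 CPM in the control line (SD, n = 2 each). Its log2 fold change was 0.22 (SE 0.45), and -0.43 without MEIS2 replicate 2. Il33, a nuclear alarmin, had 7 and 23 counts in the MEIS2 libraries and 6 and 23 in the controls.

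The interleukin-6 family held the lowest p-value of the 46 genes. Il6st encodes gp130, the receptor chain through which interleukin 6, interleukin 11 and LIF all signal. It measured 238.9 and 312.8 CPM in the MEIS2 libraries, against 144.4 and 172.8 CPM in the controls, so the lines did not overlap. The log2 fold change was 0.80 (SE 0.31, edgeR unadjusted p 0.0214 and adjusted p 0.359), 0.55 without MEIS2 replicate 2 and 0.18 after removal of the trend. Il6st (chromosome 13, 112600604 to 112646620 in the positions of the table, for which no source used here names a genome build) is 11099 bases long, against a median of 4219 over all tested genes. Lif (chromosome 11, 4207557 to 4222514 in the same positions), the leukaemia inhibitory factor, is a ligand of this receptor. It measured 15.9 and 14.5 CPM in the MEIS2 libraries and 9.64 and 8.19 CPM in the controls. Its counts were 249 and 244 in the MEIS2 libraries and 148 and 133 in the controls. Both libraries of each line lay close together and the lines did not overlap, with a log2 fold change of 0.77 (SE 0.39, edgeR unadjusted p 0.0648 and adjusted p 0.522). With the trend removed it was 0.79, and without any 1 library it lay between 0.65 and 0.89. Lif is 4350 bases long, near the median. Csf1, the macrophage colony-stimulating factor, was the most abundant cytokine per length apart from Ccl2, with 380.8 and 385.1 CPM in the MEIS2 libraries and 327.2 and 363.4 CPM in the controls. The lines did not overlap, but the log2 fold change was only 0.15 (SE 0.30, edgeR adjusted p 0.845).

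Chemokines were among the most abundant members, and none had an unadjusted p under 0.05. Ccl2, which attracts monocytes, measured 86 and 91.6 CPM in the MEIS2 libraries and 106.7 and 92.7 CPM in the controls, with MEIS2 replicate 2 and control replicate 2 nearly equal (log2 fold change -0.17, SE 0.30, edgeR adjusted p 0.82). Its neighbour on chromosome 11, Ccl7, averaged 49.2 ± 10.9 CPM in the MEIS2 line and 57.6 ± 12.8 CPM in the control line (SD, n = 2 each), and in both lines replicate 2 had 0.728 of the level of replicate 1. Ccl5 averaged 26.5 ± 8.29 CPM in the MEIS2 line and 30.7 ± 6.03 CPM in the control line, and Cxcl1, a neutrophil attractant, averaged 28.6 ± 6.87 and 27.7 ± 5.77 CPM in the MEIS2 and control lines (SD, n = 2 each). For these 3 the spread within a line was larger than the gap between the lines. Cxcl12, which binds CXCR4 and guides migrating neurons, measured 9.61 and 11.6 CPM in the MEIS2 libraries and 6.84 and 8.86 CPM in the controls. Its lines did not overlap (log2 fold change 0.43, SE 0.40, edgeR adjusted p 0.669), and the value was 0.06 with the trend removed. Cxcl5 had 26 and 26 counts in the MEIS2 libraries and 15 and 20 in the controls, and Ccl20 had 7 and 22, against 23 and 11.

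Among the adhesion genes, enzymes and acute-phase targets, Ptgs2 and Vcam1 had the largest fold changes. Ptgs2 (chromosome 1, 149975782 to 149983978), which encodes the inducible cyclooxygenase of prostaglandin synthesis, measured 45 and 89.1 CPM in the MEIS2 libraries, against 41.1 and 39.9 CPM in the controls. MEIS2 replicate 1 lay close to the controls and MEIS2 replicate 2 far above them. The log2 fold change was 0.73 (SE 0.37, edgeR adjusted p 0.524), 0.11 without MEIS2 replicate 2 and 0.42 after removal of the trend. Vcam1, a ligand of leukocyte integrins, measured 4.68 and 7.93 CPM in the MEIS2 libraries and 4.17 and 3.63 CPM in the controls, with the same library highest (log2 fold change 0.69, SE 0.45, edgeR adjusted p 0.597, or 0.22 without it and 0.09 with the trend removed). Tnfaip2, a TNF-induced gene and the most abundant of this group per length, measured 93 and 68.3 CPM in the MEIS2 libraries and 69.5 and 82.1 CPM in the controls. The control values lay inside the MEIS2 range (log2 fold change 0.09, SE 0.31). Nos2, the inducible nitric oxide synthase, averaged 7.75 ± 0.173 CPM in the MEIS2 line and 8.67 ± 0.0981 CPM in the control line (SD, n = 2 each), without overlap and with a log2 fold change of -0.16 (SE 0.40). Lcn2, an iron-chelating acute-phase protein, had 18 and 18 counts in the MEIS2 libraries and 18 and 15 in the controls. C3, the central complement component, had 73 and 105 counts in the MEIS2 libraries and 51 and 101 in the controls.

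In Il6, Il33 and Birc3 replicate 2 stood at least 2-fold above replicate 1 in both lines. The libraries of 1 line differed more than the lines did, as they also did for other members above, such as Ccl7, Rela and Traf2. A higher level in replicate 2 of both lines was not particular to Il6, Il33 and Birc3. Rel was 2.40-fold and 1.82-fold higher in replicate 2 of the MEIS2 and control lines. Other members, such as Ccl7, were lower in replicate 2 of both lines. Il6, the interleukin that gives the family its name, had 3 and 12 counts in the MEIS2 libraries and 2 and 13 in the controls. Replicate 2 was therefore 3.72-fold above replicate 1 in the MEIS2 line and 6.14-fold above it in the control line, while the means of the lines were 0.454 and 0.465 CPM in the MEIS2 and control lines. Il33 was 3.06-fold and 3.62-fold higher in replicate 2 of the MEIS2 and control lines, and Birc3, with 10 and 25 counts in the MEIS2 libraries and 8 and 32 in the controls, 2.33-fold and 3.78-fold higher. These were the 3 members (7.69% of 39) with replicate 2 at least 2-fold above replicate 1 in both lines, where 1.21% of all tested genes were; this count was chosen after the values were seen. All 3 had low counts. Among tested genes under a mean of 2 CPM the share was 5.6%, against 3 of 6 members. Il6 and Il33 passed the filter on counts only through their replicate 2 libraries. These shares therefore describe the values and are no test. No member was at least 2-fold lower in replicate 2 of both lines, where 0.289% of all tested genes were.

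**Figure D3:**
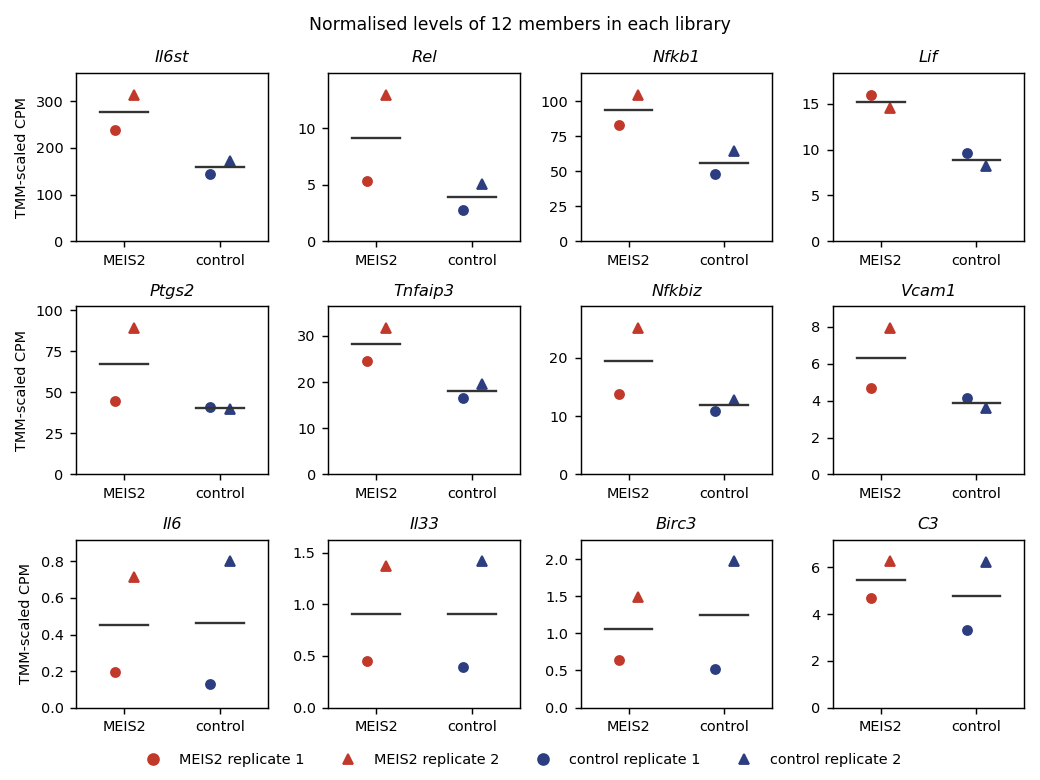
TMM-scaled CPM (y axis, from 0) of 12 members in each library, MEIS2 line left and control line right; circles are replicate 1, triangles replicate 2 and the bar is the mean of 2 libraries. The upper 8 are the members with the lowest p-values and a mean of at least 1 CPM, of which Lif has the tightest pairs; in Il6, Il33 and Birc3, chosen after their values were seen, replicate 2 lies far above replicate 1 in both lines, and the means of the lines are close.

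The fitted differences of the members followed gene length and GC content as those of other genes did. Over the 39 tested members, which share the same 4 libraries, the log2 fold change had a Spearman rho of 0.518 with gene length and -0.443 with the GC content of the longest transcript. Over all tested genes with a known GC content the values were 0.495 and -0.421. Libraries of the same line also differed along these features. Over the same genes, the replicate 2 minus replicate 1 difference had a rho with GC content of -0.640 in the MEIS2 line and -0.532 in the control line. With gene length the rho was 0.433 in the MEIS2 line and 0.322 in the control line. Between the lines, Ccl7, Ccl5 and Ccl2, the shortest members tested, had log2 fold changes of -0.23, -0.21 and -0.17. Nfkb1 and Il6st, at 12061 and 11099 bases, stood at 0.73 and 0.80. After removal of the trend on length and GC content in every library, 0 members were called, against 0% of all genes, and 10 of the 39 changed sign. Meis2 itself was not called in that fit (log2 fold change 3.65, edgeR adjusted p 0.0975), so the lack of called members there does not show equal levels. Members above 0 then numbered 21 and members below it 18, against 5733 and 7069 of all tested genes. The median was 0.03 for the members and -0.05 for all tested genes. In that fit, Lif (0.79), Rel (0.73), Cxcl5 (0.57) and Nfkbiz (0.56) stood highest, and Ikbke (-0.74), Ikbkb (-0.59) and Traf2 (-0.45) lowest. What part length and GC content had in the difference of any single member was not tested.

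**Figure D4:**
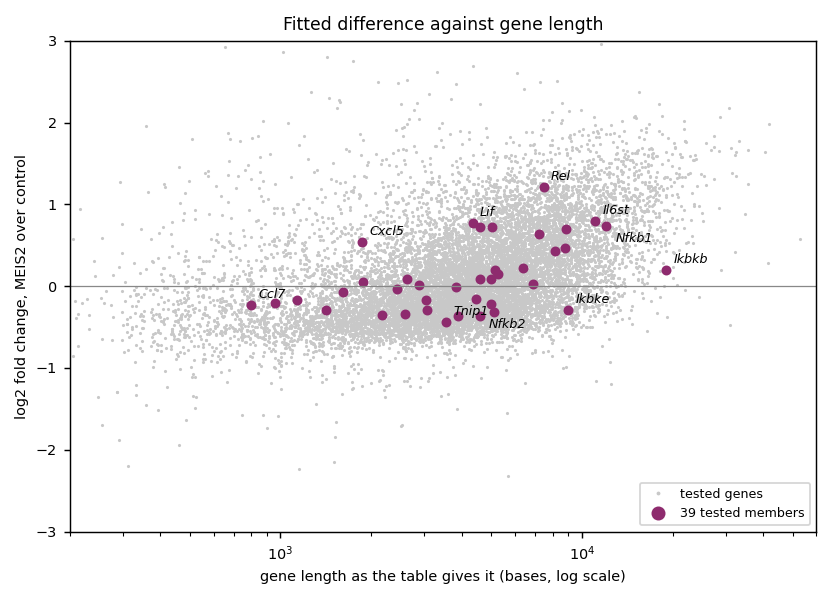
Log2 fold change (y axis, MEIS2 over control) against gene length in bases (x axis, log scale) for the tested genes in grey and the 39 tested members in purple; 45 genes lie outside the axes. Longer genes lie higher on the whole, the members lie inside the grey cloud, and Lif and Cxcl5 lie high for their length while Ikbkb and Ikbke lie low for theirs.

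The members were also set out by the motifs of their promoters. Of the 14 with a kappaB match, 13 were tested, with a median log2 fold change of 0.05, 7 above 0 and 6 below. Of the 22 without one in the window, 16 were tested, with a median of 0.02, 9 above 0 and 7 below. The 8 with the MEIS core motif (Ccl20, Ikbke, Il1r1, Il1rl1, Nfkbib, Tnfaip3, Tnip1 and Traf2) had a median of -0.29, with 3 above 0 and 5 below, where 50.9% of all tested genes were above 0. With the trend removed 1 of the 8 was above 0 and 7 below, with a median of -0.26, while 5733 of all tested genes were above 0 and 7069 below. The 7 include Nfkbib, which lay at -0.004. Members without the MEIS motif were not set beside these 8, and a link between motif and level was not tested.

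Other genes of the pathway, taken by name from lists of signalling proteins, receptors and targets, were read in the same way. Of 79 such genes 58 were tested and 0 were called by edgeR, with 4 (6.9%) higher at an unadjusted p under 0.05 and 0 lower, against 9.79% and 0.414% of all tested genes. Their median log2 fold change was 0.15, against 0.01 over all genes. It was 0.01 with the trend removed, against -0.05 over all genes, and 0.00 without MEIS2 replicate 2, against -0.08. Traf3, an adaptor that restrains the non-canonical pathway, measured 33.5 and 46.5 CPM in the MEIS2 libraries, against 14.9 and 21.6 CPM in the controls. The lines did not overlap, and the log2 fold change was 1.13 (SE 0.37, edgeR adjusted p 0.287), 0.92 with the trend removed and between 0.84 and 1.42 without 1 library. Tab2, an adaptor of the kinase TAK1, stood at 0.87 (SE 0.36, edgeR adjusted p 0.395), Nkrf, a repressor of NF-kB target genes, at 1.05 (SE 0.45, edgeR adjusted p 0.429), and Cflar, a caspase-8 inhibitor, at 0.86 (SE 0.40, edgeR adjusted p 0.481). These 3 values fell to 0.35, 0.57 and 0.23 when MEIS2 replicate 2 was left out. Once the trend was taken out, Tab2 had a value of 0.57, Nkrf of 0.90 and Cflar of 0.10. On the other side, Commd1, which limits NF-kB in the nucleus, had the lowest p-value, with a log2 fold change of -0.59 (SE 0.36, edgeR adjusted p 0.595). Ltbr, the lymphotoxin receptor, stood at -0.43 (SE 0.33), Rnf31, of the linear ubiquitin ligase, at -0.43 (SE 0.34), and Il11ra1, a receptor of interleukin 11, at -0.43 (SE 0.36). Leaving MEIS2 replicate 2 out gave -0.18, -0.18 and -0.11 for these 3. After removal of the trend Ltbr moved to -0.09 and Il11ra1 to -0.37. Rnf31 then lay at -0.61 and Commd1 at -0.84, both lower than before. The receptors Cd40, Ccr2 and Cxcr2 and the targets Ccl3, Cxcl3, Csf3 and Sele had no count in any library, while Cxcl10, a chemokine also induced by interferon, measured 119.4 and 138.3 CPM in the MEIS2 libraries and 124.8 and 128.5 CPM in the controls.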

How the data were processed

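Poly(A)-selected RNA of 4 HT22 libraries (2 per line) was sequenced after TRIzol extraction, per the labels' protocols. The deposited table holds the authors' raw read counts per gene, 1 column per library, with a gene length in bases per the file headers. Per the submitters' processing notes DESeq2 was used (no version). No source used here names the aligner, the counter, the treatment of strand or the genome build. Counts were tested in R 4.3.3 with edgeR 4.0.16 (filterByExpr, TMM, quasi-likelihood F test on the line, all 4 libraries), with p-values adjusted by Benjamini-Hochberg over 12802 genes. The SE is the log2 fold change divided by the square root of F. The code was tested on simulated data. Counts of both libraries of a line were compared by chi-square, which came to 87.3 per degree of freedom in the MEIS2 line and 33.6 in the control line. The libraries of a line thus differed by more than counting error, which does not show that they are separate cultures. Each library was taken as 1 replicate.

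For the trend fit, splines of 5 degrees of freedom on gene length and GC content (longest GENCODE M21 transcript, 98.9% of tested genes) gave offsets per library. BLAST+ 2.17.0 found annotated copies (90% identity over at least 150 bases and 50% of the copy) for 5 members, Birc3, Il11, Il1rl1, Traf2 and Vcam1; those in the table had at most 5 counts in a library. Positions of promoters are GRCm38.p6, and no position was converted. Values in every library are given for Meis2, the most abundant member of each role and up to 15 members with the lowest p-values at a mean of at least 1 CPM. For the other pathway genes, up to 4 with the lowest p-values in each direction are named, and the rest were picked after their values were seen. The members and lists were chosen with earlier results of these data known. Alternatives were other scalings and filters, DESeq2 1.42.0, limma-voom (limma 3.58.1), the replicate number as a block, the trend fit and leaving out each library.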

Additional observations from a re-analysis of the deposited data

How the results depend on the processing

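Of the 39 tested members, 21 kept their direction under all 14 alternatives that could be fitted for them, and 29 were called under none. The number of genes called was 70 with DESeq2, 271 with no filter on low counts and 0 in the fit with the length and GC trend taken out, where Meis2 stood at 3.65; without 1 library it lay between 1 and 2411. No member was called under DESeq2, limma-voom, the other scalings, the other filters or the trend fit, and without 1 library 0 to 3 were, the 3 being Rel, Ptgs2 and Nfkbiz without MEIS2 replicate 1, against 18% of all genes. That fit takes the lone MEIS2 library to vary like the controls. DESeq2 gave no adjusted p for Rel and several other members with lower counts, so it could not call them. Members at an unadjusted p under 0.05 numbered 5 with library size alone (12.8%, against 11.2% of all genes), and 0 to 9 without 1 library (against 1.75% to 34.2% of all genes). The members' median was 0.18 with library size alone, where that of all genes was 0.17, and -0.062 to 0.20 without 1 library. The cause of these changes was not tested. Depth limits the members with few counts, such as Il6, at 2 to 13 counts a library.

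The replicate numbers are shared by the lines only as numbers; over the tested genes, which are not independent, the replicate 2 minus replicate 1 differences of the MEIS2 and control lines had a Pearson correlation of 0.529. With the replicate block, on 1 residual degree of freedom, 2795 genes (21.8%) were called, and of the members 7 (17.9%): Il6st, Rel, Nfkb1, Lif, Ptgs2, Tnfaip3 and Nfkbiz, all higher; 9 (23.1%) had an unadjusted p under 0.05, against 35.2% of all genes. In the fit with both the block and trend removal these counts were 2764 genes (21.6%), 6 members (15.4%) and 8 (20.5%, against 33.3% of all genes), the 6 being Lif, Rel and Ptgs2, higher, and Ikbke, Ikbkb and Traf2, lower.

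Signs changed as follows. DESeq2 size factors gave Cxcl1 -0.013, Il1rl1 -0.027 and Il33 -0.022, and DESeq2 gave -0.013, -0.027 and -0.017. Library size alone gave Tnfrsf1b 0.14, Nfkbia 0.084 and Il6 0.12; upper quartile scaling Il1rl1 -0.004 and Il33 -0.013; no filter -0.012 and -0.009; the 5 CPM filter Tnfrsf1b 0.019; limma-voom Birc2 -0.026 and Il6 0.15; the block -0.016 and 0.022. The trend fit gave Rela 0.003, Ccl5 0.027, Tnfrsf1b 0.075, Nfkbia 0.17, Nfkbie 0.063, Il1rl1 -0.34, Birc2 -0.16, Ikbkb -0.59, Il1r1 -0.16 and Il33 -0.074, and with the block 0.003, 0.028, 0.075, 0.14, 0.058, -0.35, -0.19, -0.60, -0.16 and -0.060. Without 1 library, Ccl7 ranged from -0.50 to 0.010, Tnfrsf1b from -0.21 to 0.12, Tnfaip2 from -0.16 to 0.26, Il1rl1 from -0.23 to 0.20, Birc2 from -0.70 to 0.57, C3 from -0.20 to 0.71, Ccl20 from -1.31 to 0.37, Il33 from -1.03 to 1.20, Nfkbia from -0.30 to 0.076, Cxcl1 from -0.24 to 0.27, Lcn2 from -0.085 to 0.26, Birc3 from -0.98 to 1.01, Il6 from -1.28 to 1.74, Ccl5 from -0.59 to 0.032 and Il1r1 from -0.43 to 0.63.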
